A study of Arabidopsis thaliana with 7 samples.

Results

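The 4 genes described here encode the LHCB2 and LHCB3 proteins of the light-harvesting antenna of photosystem II in Arabidopsis thaliana: LHCB2.1 (AT2G05100), LHCB2.2 (AT2G05070), LHCB2.3 (AT3G27690) and LHCB3 (AT5G54270). They were taken by gene identifier from a table of 27655 genes, and all 4 had a value in each of the 7 libraries and passed the filter on low values. The libraries came from total RNA of whole seedlings of the Col-0 ecotype, 12 days old, kept at 16 °C in long days on 1/2 MS medium and harvested at ZT4, which is 4 h after the lights came on. Wild type (WT) had 3 libraries and the glk1 glk2 double mutant, named for both GOLDEN2-LIKE transcription factor genes, had 4. The labels name no alleles, no planting batches and no pooling of plants, so each p-value reflects library-to-library spread, part or all of which may be technical.

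Light-harvesting complex II is the main chlorophyll-binding antenna of plants, and its proteins assemble in the thylakoid membrane as trimers that carry chlorophyll a and b. LHCB1, LHCB2 and LHCB3 proteins make up these trimers in varying combinations. LHCB1 is the most abundant, and LHCB3 occurs in only part of the trimers. LHCB2 is phosphorylated by the kinase STN7 when part of the antenna moves to photosystem I (a state transition). GLK1 and GLK2 are known for activating antenna and chlorophyll synthesis genes.

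The LHCB2 genes are close copies of one another and LHCB3 is the most distant of the 4. In the RefSeq annotation of TAIR10.1, LHCB2.2 lies on the minus strand of chromosome 2 from 1799234 to 1800472 and LHCB2.1 on the same strand from 1822990 to 1824480, with 22517 bases and 5 annotated genes between them. LHCB2.3 lies on the plus strand of chromosome 3 from 10255906 to 10257489, and LHCB3 on the plus strand of chromosome 5 from 22038165 to 22039568. Each LHCB2 gene has 2 exons in the model used here, and LHCB3 has 3. The coding sequence of LHCB2.1 matched that of LHCB2.2 in 96.6% of aligned bases, that of LHCB2.3 in 85.8% and that of LHCB3 in 71.4%. The translated proteins of the LHCB2 genes were 95.1% to 97.7% identical to one another and 71.9% to 73.1% identical to LHCB3. The stretches of 60 coding bases below, read 5′ to 3′, are shown because LHCB3 departs there from the LHCB2 genes, near the start of the mature protein, the part in which LHCB2 is known to be phosphorylated and LHCB3 is not. Capitals mark 6 codons, starting with tryptophan, that encode the same residues in all 4 genes.
LHCB2.1: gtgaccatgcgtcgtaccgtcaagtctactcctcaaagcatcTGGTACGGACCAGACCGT
LHCB2.2: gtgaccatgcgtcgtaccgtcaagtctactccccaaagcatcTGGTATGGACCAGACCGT
LHCB2.3: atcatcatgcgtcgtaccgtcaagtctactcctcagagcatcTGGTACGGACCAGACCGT
LHCB3: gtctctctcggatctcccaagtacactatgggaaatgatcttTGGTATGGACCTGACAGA
In the 42 bases before the capitals, LHCB2.2 had the base of LHCB2.1 at 41 positions, LHCB2.3 at 38 and LHCB3 at 14.

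The sequences upstream of the annotated starts are shown because the transcripts of all 4 genes fell together in a mutant of transcription factors. They come from RefSeq TAIR10.1 and read 5′ to 3′ on the strand of the gene, ending at the base before its annotated start. They span chr2:1824481-1824780 (minus strand) for LHCB2.1, chr2:1800473-1800772 (minus strand) for LHCB2.2 and chr3:10255606-10255905 (plus strand) for LHCB2.3. For LHCB3 the 112 bases at chr5:22038053-22038164 (plus strand) are printed, since the 188 bases before them lie in the neighbouring gene MRE11. The annotated start of LHCB2.3 is that of an incomplete gene model, and its other model starts at 10255941.
LHCB2.1: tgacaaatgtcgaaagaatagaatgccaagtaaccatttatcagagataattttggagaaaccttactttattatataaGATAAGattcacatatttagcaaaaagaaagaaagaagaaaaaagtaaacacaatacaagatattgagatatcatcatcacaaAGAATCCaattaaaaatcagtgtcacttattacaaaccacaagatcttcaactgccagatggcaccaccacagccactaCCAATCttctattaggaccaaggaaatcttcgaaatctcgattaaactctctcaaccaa
LHCB2.2: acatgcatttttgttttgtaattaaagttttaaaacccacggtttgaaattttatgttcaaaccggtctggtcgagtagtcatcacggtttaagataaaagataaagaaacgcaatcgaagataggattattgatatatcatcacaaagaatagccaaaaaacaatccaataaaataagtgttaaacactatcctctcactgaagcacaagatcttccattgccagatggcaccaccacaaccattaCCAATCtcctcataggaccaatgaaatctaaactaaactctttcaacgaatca
LHCB2.3: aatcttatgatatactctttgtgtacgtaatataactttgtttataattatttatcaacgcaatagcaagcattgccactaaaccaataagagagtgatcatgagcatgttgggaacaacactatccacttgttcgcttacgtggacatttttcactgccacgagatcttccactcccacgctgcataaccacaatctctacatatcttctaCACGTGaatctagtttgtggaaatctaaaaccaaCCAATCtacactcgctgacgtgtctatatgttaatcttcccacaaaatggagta
LHCB3: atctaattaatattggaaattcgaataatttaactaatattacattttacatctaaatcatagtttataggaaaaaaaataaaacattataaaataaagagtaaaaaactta
Capitals mark matches to 6 motifs searched on both strands of the 300 bases upstream of each start. CCAATC, a motif linked to GLK targets, stood in all 3 LHCB2 windows, 59 to 54 bases before the start in LHCB2.1, 53 to 48 in LHCB2.2 and 54 to 49 in LHCB2.3, each on the strand of the gene. The LHCB2.3 distance is counted from the start of the incomplete model and is longer from the other start at 10255941. CCAATC was absent from the LHCB3 window and present in 12.2% of 27443 windows of nuclear protein-coding genes. The LHCB3 window includes the 188 bases in MRE11, and bases after the annotated start of a gene were not searched. A GLK-type site was searched as AGATTCT, with its variant AGATTCC, and with a first base of G as GGATTCT, with its own variant GGATTCC. It was found once, in LHCB2.1, on the strand opposite to the gene, and in 14.7% of all windows. The G-box CACGTG was found once, in LHCB2.3 (7.09% of all windows), and the I-box core GATAAG once, in LHCB2.1 (14.5%). The CCA1-type sites AAAAATCT and, with a C, AACAATCT (9.99% of all windows) and the evening element AAAATATCT (2.79%) had no match. The motifs do not overlap one another in these windows. The LHCB2 genes are copies of one another, so their shared CCAATC is not counted as 3 independent occurrences, and a match is no evidence of binding.

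The values are TPM, the length-corrected share of a transcript in its library scaled to a fixed total, so read depth is unknown and a large loss in some genes raises the values of all others. The 7 libraries listed 22580 to 22693 genes above 0. GLK1 transcripts fell from 183 to 203 TPM in WT to 49.7 to 56.0 TPM in glk1 glk2, and GLK2 transcripts from 155 to 161 TPM to 46.0 to 54.4 TPM, so both were still detected in the mutant. Leaf markers summed to 39222 to 45047 TPM and root markers to 1679 to 3034 TPM over the 7 libraries, while the 4 flower markers summed to under 1 TPM in each. Of the 4 leaf markers 1 fell (RBCS3B), and of the 5 root markers none fell or rose by the rule given below. In TPM alone 2 root hair genes were called higher with no overlap between groups: COBL9, with a WT mean of 8.31 and a mutant mean of 15.3 TPM, and RHS2, with 10.5 and 30.2 TPM (limma adjusted p = 0.0178 and 0.0188, and 0.246 and 0.178 after TMM scaling). Of all genes tested, 63.0% were called higher in TPM. The share of genes with every mutant library above every WT library was not computed. The median log2 fold change of the root markers was 0.69 in TPM, against 0.33 for all genes tested, and 0.35 against 0.01 after TMM scaling, and the part of root tissue in the results below was not tested. The 3 seed markers summed to 372 TPM in glk1 glk2 replicate 2, 58.5 TPM in WT replicate 2, and 0.62 to 11.3 TPM in the other libraries. In 5606 rows the gene identifiers were out of alphabetical order, and WT replicate 1 matched the other libraries there when read in alphabetical order (r = 0.996 across genes, against 0.0546 as deposited), so it was read that way. Of the 4 genes, this touches LHCB2.3.

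All 4 transcripts were lower in every glk1 glk2 library than in any WT library, but by very different amounts: LHCB2.1 was 2.34 times, LHCB2.2 4.41 times, LHCB3 4.50 times and LHCB2.3 12.2 times as abundant in WT as in the mutant. All 4 fell in limma's test (Benjamini-Hochberg adjusted p under 0.05) both in TPM and after TMM scaling, which centres most genes on no change. Below, "fell" and "rose" mean called in that direction with both scalings. Among 19127 genes tested, 2.53% fell and 3.20% rose. The 613 genes that rose numbered 197, 165 and 328 without WT replicates 1, 2 and 3 in turn and 311 without mutant replicate 1. In TPM alone 2.56% were called lower and 63.0% higher, and after TMM scaling 4.96% lower and 3.20% higher. In 2.54% of genes every mutant library lay below every WT library in TPM, as for all 4 genes here. In whole seedlings, fewer antenna-rich cells and less antenna RNA per cell cannot be told apart.

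**Figure D1:**
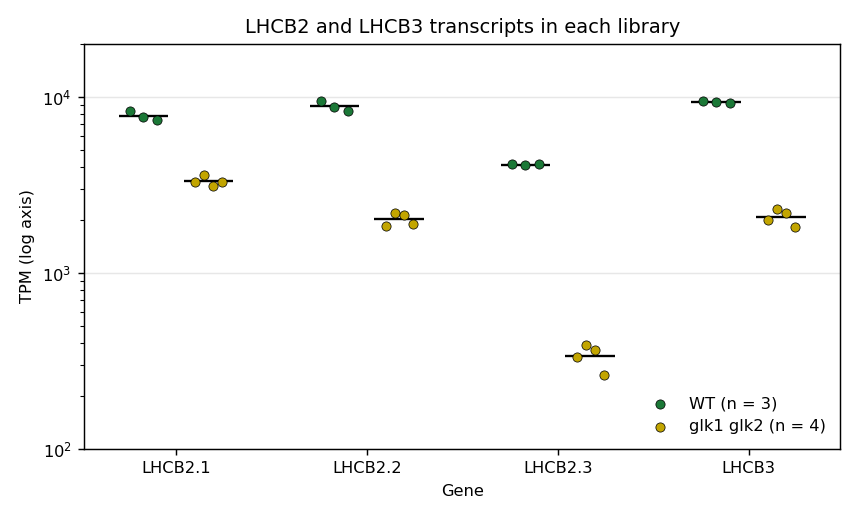
TPM of each LHCB2 and LHCB3 gene in each library, on a log axis; points are libraries (3 WT, 4 glk1 glk2) and horizontal lines are group means. No mutant point reaches a WT point of the same gene, and the gap is widest for LHCB2.3, at 4079 to 4134 TPM in WT against 263 to 387 TPM in glk1 glk2.

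LHCB2.1 lost the least of its transcript. It stood at 8303, 7700 and 7354 TPM in WT replicates 1 to 3 and at 3276, 3590, 3137 and 3282 TPM in mutant replicates 1 to 4. The highest mutant value lay below the lowest WT value. The log2 fold change was -1.23 ± 0.09 (SE, limma adjusted p = 6.908e-05) in TPM and -1.59 ± 0.12 (adjusted p = 1.011e-04) after TMM scaling. Its place among all transcripts hardly moved: it ranked 12th to 15th in the WT libraries and 14th to 16th in the mutant libraries. With quantile normalization, which gives equal ranks equal values in every library, its log2 fold change was -0.11 and the call was lost (limma adjusted p = 0.444).

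LHCB2.2, its neighbour on chromosome 2, fell further. The WT values were 9491, 8763 and 8336 TPM, and the mutant values 1836, 2182, 2131 and 1895 TPM. Replicate 1 was the highest WT library for both LHCB2.1 and LHCB2.2 and replicate 3 the lowest. The log2 fold change was -2.14 ± 0.10 (SE, limma adjusted p = 4.734e-06) in TPM and -2.50 ± 0.12 (adjusted p = 7.023e-06) after TMM scaling. It ranked 9th to 12th in WT and 33rd to 53rd in the mutant. Quantile normalization gave a smaller log2 fold change, -1.29, still called (limma adjusted p = 7.840e-04). Some reads cannot tell LHCB2.1 from LHCB2.2: of the stretches of 50 bases in their transcripts, 78.1% for LHCB2.1 and 71.8% for LHCB2.2 occur in no other annotated gene, and the rest are shared between the pair. At 100 bases these shares were 90.8% and 87.6%. How shared reads were assigned is not given in the sources used here, so the division between LHCB2.1 and LHCB2.2 is less certain than their sum.

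LHCB2.3, on chromosome 3, showed the deepest loss of the 4. Its WT libraries were nearly level at 4134, 4079 and 4130 TPM, and its mutant libraries were at 331, 387, 367 and 263 TPM. Mutant replicate 4 was the lowest and replicate 2 the highest, both far below WT. The log2 fold change was -3.62 ± 0.12 (SE, limma adjusted p = 6.088e-07) in TPM and -3.98 ± 0.14 (adjusted p = 9.224e-07) after TMM scaling. Ordered by log2 fold change it had the 9th largest fall of all genes tested, against 27th for LHCB3, 29th for LHCB2.2 and 87th for LHCB2.1. Its rank among transcripts went from 33rd or 34th in WT to between 322nd and 571st in the mutant. With WT replicate 1 as deposited, where its row holds 34.97 TPM for that library, the log2 fold change was -1.34 and the call was lost (limma adjusted p = 0.51). With the out-of-order rows of that library left out it was -3.62. The end of LHCB2.3 overlaps AT3G27700 on the opposite strand by 595 bases, and the end of LHCB3 overlaps AT5G54280 by 186 bases. Those genes stood at means of 8.22 and 8.10 TPM in WT and 10.97 and 11.95 TPM in the mutant, and the strand setting is not given.

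LHCB3, the single gene for its trimer protein, fell about as far as LHCB2.2. It stood at 9512, 9302 and 9190 TPM in WT and at 2007, 2295, 2178 and 1821 TPM in glk1 glk2. The groups did not overlap, and mutant replicates 2 and 4 were again the highest and the lowest. The log2 fold change was -2.17 ± 0.10 (SE, limma adjusted p = 4.734e-06) in TPM and -2.54 ± 0.12 (adjusted p = 8.169e-06) after TMM scaling. It ranked 8th in each WT library and 31st to 55th in the mutant. Quantile normalization gave -1.40, still called (limma adjusted p = 0.00109).

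The order of the 4 levels differed between the genotypes. In WT, LHCB3 and LHCB2.2 were the highest and their ranges over libraries overlapped, LHCB2.1 followed, and LHCB2.3 was the lowest. In glk1 glk2, LHCB2.1 was the highest in each library, LHCB3 and LHCB2.2 overlapped below it, and LHCB2.3 stayed lowest. Ratios within a library show these shifts free of any scaling, and 10 were compared between genotypes: the 6 pairs of genes, and each gene against the sum of the 5 LHCB1 genes. For 9 of the 10 the WT and mutant libraries did not overlap and the exact two-sided permutation p was 0.0286, the smallest that 35 divisions of 7 libraries allow (0.0317 adjusted over the 10 ratios). All 10 are built from the same 4 genes and the LHCB1 sum, so they are not independent results. How often ratios of other gene pairs separate was not computed.

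**Figure D2:**
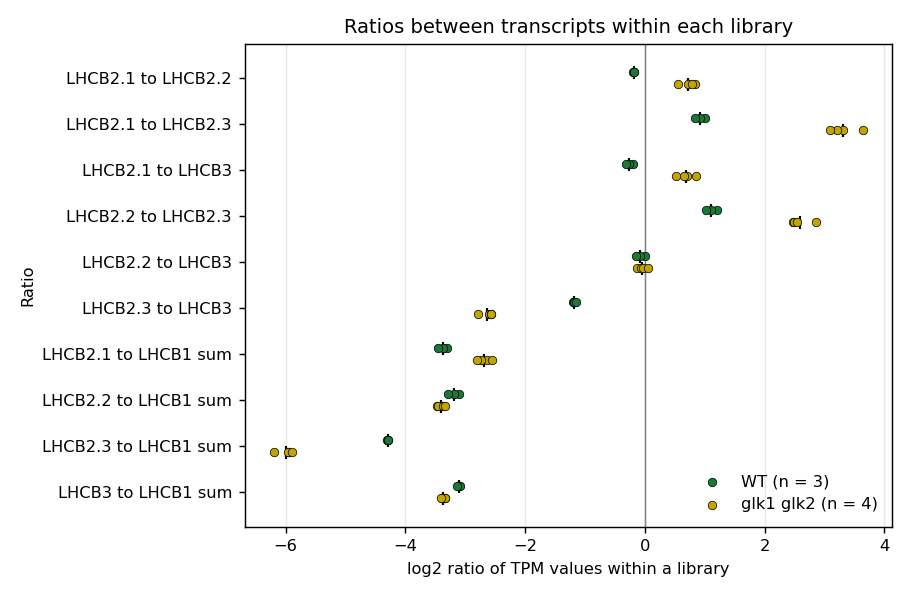
log2 ratio of TPM values within each library, for 6 pairs of genes and for each gene against the LHCB1 sum; points are libraries (3 WT, 4 glk1 glk2), short vertical lines are group means. WT and mutant points separate for every ratio except LHCB2.2 to LHCB3, where they overlap around 0.

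In TPM LHCB2.1 gained on its close copy LHCB2.2, though reads shared by the pair leave the division between them uncertain. The ratio of LHCB2.1 to LHCB2.2 was 0.875, 0.879 and 0.882 in the WT libraries and 1.78, 1.65, 1.47 and 1.73 in the mutant libraries, a difference of 0.91 ± 0.07 (SE) on the log2 scale. LHCB2.1 moved from below to above LHCB2.2 in every mutant library. LHCB2.1 to LHCB3 changed by a similar amount, from 0.800 to 0.873 in WT to 1.44 to 1.80 in the mutant (log2 difference 0.95 ± 0.09).

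LHCB2.3 lost ground to every other gene of the group. LHCB2.1 was 1.78 to 2.01 times as abundant as LHCB2.3 in WT and 8.55 to 12.5 times in the mutant (log2 difference 2.40 ± 0.15, SE). LHCB2.2 was 2.02 to 2.296 times as abundant as LHCB2.3 in WT and 5.55 to 7.21 times in the mutant (1.48 ± 0.11). The ratio of LHCB2.3 to LHCB3 was 0.435 to 0.449 in WT and 0.144 to 0.169 in the mutant (-1.45 ± 0.07).

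LHCB2.2 and LHCB3 kept close to a ratio of 1. LHCB2.2 to LHCB3 was 0.998, 0.942 and 0.907 in WT and 0.915, 0.951, 0.978 and 1.04 in glk1 glk2. The log2 difference between genotypes was 0.03, with a 95% interval from -0.11 to 0.18 from the pooled spread of the libraries, and the exact permutation p was 0.629. A difference in fall of the size seen between LHCB2.1 and LHCB2.2 lies outside that interval.

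Against the LHCB1 genes, which make the bulk of the trimer, the 4 genes went different ways. The sum of LHCB1 transcripts was 79440 to 81730 TPM in WT and 19188 to 24009 TPM in the mutant. The ratio to that sum was higher in the mutant for LHCB2.1, from 0.091 to 0.102 in WT to 0.143 to 0.171 in the mutant (log2 difference 0.69 ± 0.08, SE). It was lower in the mutant for LHCB2.2 (-0.22 ± 0.06), LHCB3 (-0.25 ± 0.02) and LHCB2.3 (-1.70 ± 0.08).

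The LHCB2 genes together held a similar part of the trimer transcripts in both genotypes. LHCB2 made up 19.4%, 18.8% and 18.0% of the summed TPM of LHCB1, LHCB2 and LHCB3 in the WT libraries and 19.5%, 19.0%, 18.9% and 20.6% in the mutant libraries, with overlapping ranges. LHCB1 held 72.2% to 73.6% in WT and 72.5% to 74.0% in the mutant. Within LHCB2 the shares of the copies were redistributed: of the LHCB2 transcripts, LHCB2.1 made up 37.5% ± 0.38 (SD, n = 3) in WT libraries but 58.6% ± 2.18 (SD, n = 4) in mutant libraries. LHCB2.2 went from 42.7% ± 0.61 to 35.4% ± 1.73, and LHCB2.3 from 19.8% ± 0.99 to 5.93% ± 0.75. Because some reads cannot tell LHCB2.1 from LHCB2.2, the division between these copies is less certain than their sum. LHCB3 went from 8.42% ± 0.08 of the trimer transcripts to 7.12% ± 0.19, with no overlap between groups. These sums are given as a description, with no test. In total the 4 genes filled 3.01% ± 0.12 of all TPM in WT and 0.774% ± 0.053 in glk1 glk2, that is 30098 ± 1234 and 7744 ± 526 TPM.

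**Figure D3:**
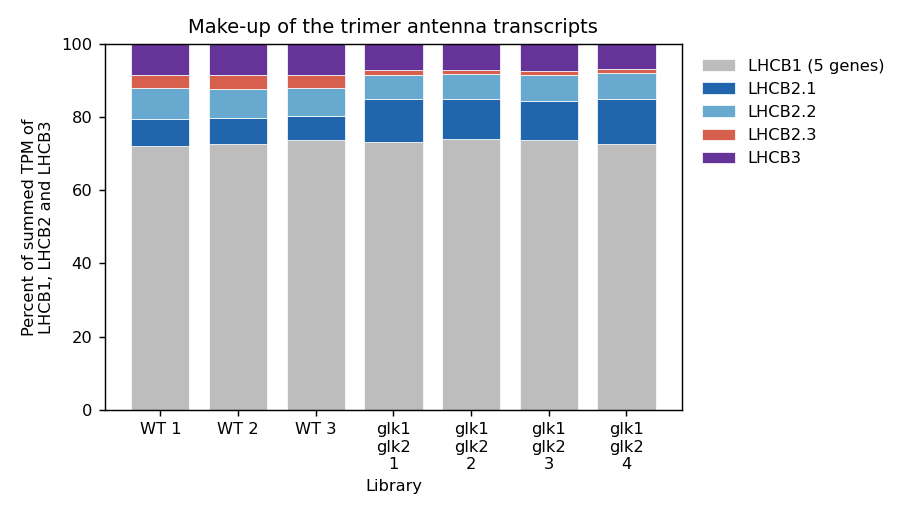
Stacked bars give the percent of the summed TPM of LHCB1, LHCB2 and LHCB3 held by the 5 LHCB1 genes together and by each LHCB2 and LHCB3 gene, in each of 7 libraries. The LHCB1 part stays between 72.2% and 74.0%, while LHCB2.1 widens from a mean of 7.02% to 11.4% and LHCB2.3 shrinks from 3.71% to 1.15%.

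Within each genotype the 4 genes varied little. Deviations from the group mean of log2(TPM + 1) stayed between -0.09 and 0.10 in WT and between -0.34 and 0.22 in the mutant. Mutant replicate 2 was above its group mean for all 4 genes, by 0.11 for LHCB2.1 to 0.22 for LHCB2.3. Mutant replicate 4 was below it for all 4, by little for LHCB2.1 (-0.01) and most for LHCB2.3 (-0.34). Replicate 2 is the library with 372 TPM of seed markers, and replicate 4 had the highest sum of root markers, 3034 TPM against 1812 to 2519 TPM in the other mutant libraries. Most of that sum is PYK10, at 2887 TPM in replicate 4 and 1713 to 2419 TPM in the other mutant libraries. COBL9, EXPA7 and RHS2 were also highest in replicate 4 of the mutant (20.6, 36.35 and 58.44 TPM). PHO1 was not, at 31.16 TPM there against 56.17 TPM in replicate 3. Without replicate 2 the log2 fold changes of LHCB2.1, LHCB2.2, LHCB2.3 and LHCB3 in TPM were -1.27, -2.18, -3.69 and -2.22, and without replicate 4 they were -1.22, -2.11, -3.51 and -2.11. All stayed called. The part of seed or root tissue in the spread was not tested.

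**Figure D4:**
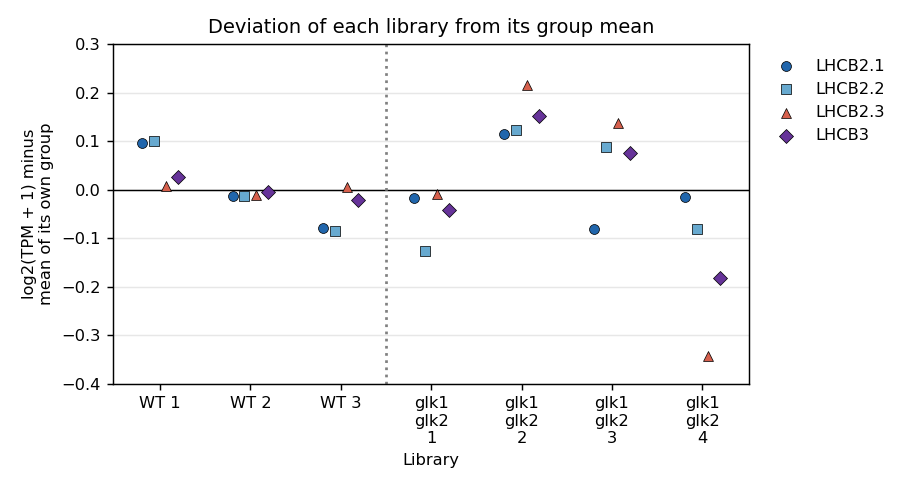
Each point is log2(TPM + 1) of a gene in a library minus the mean of its own group; the dotted line separates WT from glk1 glk2. In the mutant the 4 genes lie highest in replicate 2, and LHCB2.3 spreads most, from -0.34 to 0.22.

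Genes with the most similar profiles differed between the members. Likeness was taken as the smallest root mean square distance between centred log2(TPM + 1) profiles over the 7 libraries, among 14690 other genes with a mean of at least 5 TPM. For LHCB2.1 the nearest were the photosystem I subunit genes PSAO (distance 0.062), PSAF (0.069) and PSAG (0.081). For LHCB2.2 they were LHCB3 (0.065), LHCB1.3 (0.095) and LHCB4.2 (0.101), and for LHCB3 they were LHCB2.2 (0.065), LHCB4.2 (0.072) and AT2G42220 (0.075), annotated as a rhodanese superfamily protein. For LHCB2.3 the nearest were more distant and not antenna genes: AT4G13575, an uncharacterized protein (0.183), AT5G48490, a lipid-transfer superfamily protein (0.215), and AT5G03350, a legume lectin family protein (0.459). AT5G48490 went from a mean of 326 TPM in WT to 21.4 TPM in the mutant, AT4G13575 from 13.6 to 0.06 TPM, and AT5G03350 from 52.1 to 6.25 TPM. AT4G13575 is near 0 in the mutant, where the added 1 sets its log2(TPM + 1) value, so its distance does not show a fall of like size to that of LHCB2.3. Ranked by likeness to LHCB2.1, its paralog LHCB2.3 came 14601st of 14690. From the side of LHCB2.3, LHCB2.1 came 65th at the same distance of 1.195. The distance grows with any difference in the size of the fall, so a gene that fell much further can rank behind unchanged genes.

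The antenna fell broadly: 18 of its 21 genes, the 4 described here included, fell and 0 rose. All 5 LHCB1 genes fell, with a median log2 fold change of -2.11 in TPM, against -2.16 for the 4 genes described here and 0.33 for all genes tested. After TMM scaling these medians were -2.47, -2.52 and 0.01. By p the first were LHCB1.4, from 5155 to 10.4 TPM, LHCB1.3, from 29898 to 6941 TPM, and LHCB1.1, from 12203 to 3785 TPM. LHCB1.1, LHCB1.2 and LHCB1.3 are near-identical copies, so the division of reads among them is uncertain. Stretches shared by LHCB1.4 and LHCB1.5 were not examined, so how far read assignment affects the values of LHCB1.4 is unknown. Of 6 genes for the minor antenna, whose proteins link the trimers to the photosystem II core, 4 fell and 0 rose, led by LHCB4.2 (4366 to 987 TPM), LHCB6 (5296 to 1482 TPM) and LHCB4.1 (5137 to 2007 TPM). LHCB4.3 was at 29.4 and 31.1 TPM (TMM-scaled limma adjusted p = 0.24), and LHCB7, at 34.2 and 46.8 TPM, was called higher in TPM but not after TMM scaling (adjusted p = 0.428). Of 6 photosystem I antenna genes 5 fell, led by LHCA1 (9095 to 2727 TPM), LHCA2 (5708 to 2057 TPM) and LHCA3 (4639 to 1755 TPM), and LHCA5 was not called after TMM scaling (adjusted p = 0.766).

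Genes that insert antenna proteins into the thylakoid membrane changed less. Of 5 such genes 1 fell and 0 rose. CPSRP43, a subunit of the chloroplast signal recognition particle that binds antenna proteins, had 234 ± 12.3 TPM (SD, n = 3) in WT libraries and fell to 137 ± 6.801 TPM (SD, n = 4). CPSRP54, its partner subunit, went from 75.5 to 65.6 TPM and the insertase ALB3 from 249 to 247 TPM. Both were called lower after TMM scaling (limma adjusted p = 0.00736 and 0.0165) and not in TPM (0.0586 and 0.899). The receptor CPFTSY and the delivery factor LTD were called with neither scaling. The list's median log2 fold change was -0.01 in TPM and -0.37 after TMM scaling.

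Of 10 genes acting in state transitions or thylakoid stacking, 5 fell and 0 rose. The 5 were the photosystem I docking-side subunits PSAH1, PSAH2, PSAL and PSAO and the grana-margin protein CURT1A. By p the first were PSAH1, from 1421 to 777 TPM, PSAH2, from 4677 to 2002 TPM, and PSAO, from 4852 to 2185 TPM. The enzymes of this list were called higher in TPM, as were 63.0% of all genes tested, and had no call after TMM scaling. Their log2 fold changes in TPM ran from 0.26 (TAP38) to 0.51 (NSI), around the median of 0.33 for all genes tested. STN7, the kinase that phosphorylates LHCB1 and LHCB2, was at 183 ± 5.15 TPM (SD, n = 3) in WT and 238 ± 6.24 TPM (SD, n = 4) in the mutant (TMM-scaled limma adjusted p = 0.866). TAP38, the phosphatase that reverses it, was at 123 and 148 TPM (adjusted p = 0.504), and STN8, PBCP and NSI had adjusted p = 0.698, 0.978 and 0.243.

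Of 4 genes of chlorophyll b metabolism, 1 fell and 0 rose. CAO, which makes the chlorophyll b that trimers need, fell to 118 ± 6.76 TPM (SD, n = 4), against 344 ± 10.96 TPM (SD, n = 3) in WT, with a log2 fold change of -1.53 in TPM. NYC1, NOL and HCAR, which turn chlorophyll b back to chlorophyll a, were at 66.5, 21.5 and 10.9 TPM in WT and 87.2, 24.1 and 14.4 TPM in the mutant. After TMM scaling none of these was called (limma adjusted p = 0.796, 0.18 and 0.853, with NOL at an unadjusted p of 0.0398). In TPM NYC1 and HCAR were called higher, as were 63.0% of all genes tested.

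**Figure D5:**
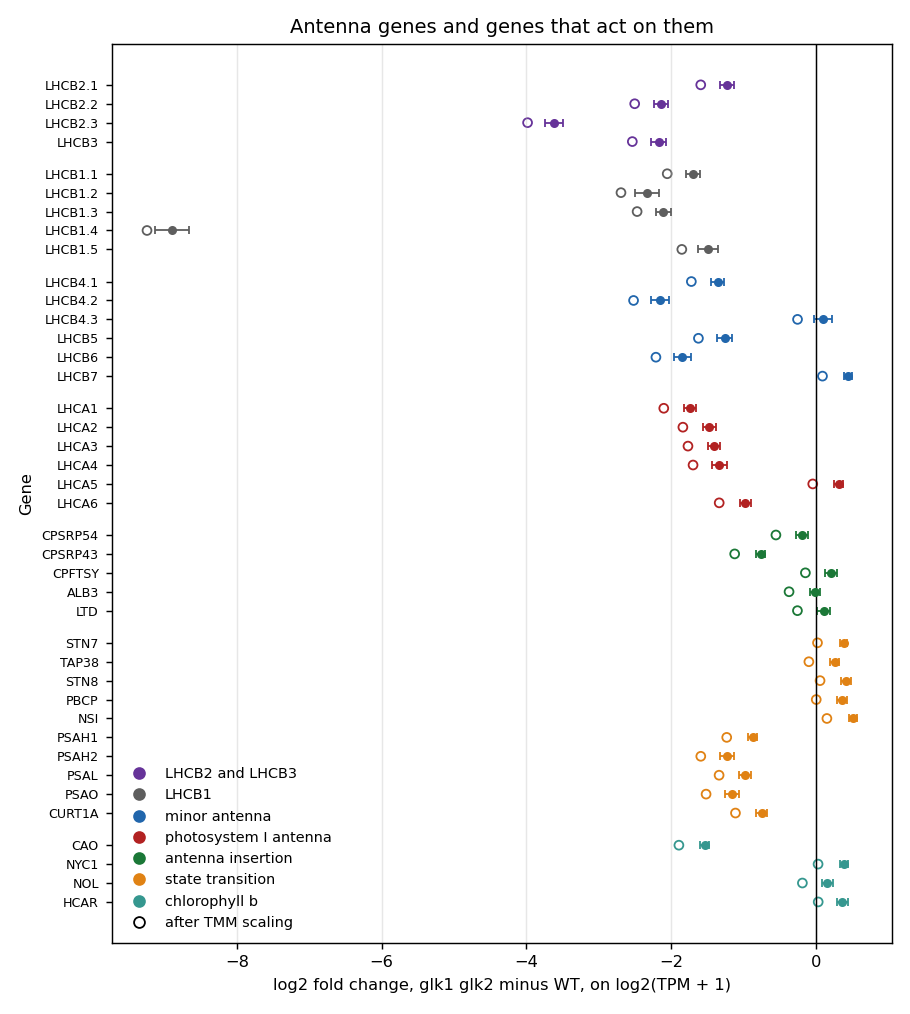
log2 fold change (glk1 glk2 minus WT) on log2(TPM + 1) for the LHCB2 and LHCB3 genes and 36 related genes; filled points with bars are TPM values ± SE from limma, open circles the values after TMM scaling. In TPM the LHCB2 and LHCB3 genes run from -1.23 for LHCB2.1 to -3.62 for LHCB2.3. The insertion genes, apart from CPSRP43 at -0.76, and the genes for chlorophyll b breakdown lie between -0.20 and 0.39 in TPM. After TMM scaling, apart from CPSRP43 at -1.12, the same genes lie between -0.55 (CPSRP54) and 0.03 (HCAR), with CPSRP54 and ALB3 called lower.

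Few genes next to the members on the chromosomes could be tested, and none of them fell, where 2.53% of all genes tested did. The annotated neighbours of LHCB2.1 are pseudogenes that have no TPM values. Beside LHCB2.2, AT2G05050 and AT2G05060 are listed at 0 in all libraries, and the pseudogenes AT2G05080 and AT2G05082 have no TPM values. Around LHCB2.3, RST1 and AT3G27700 were at 4.96 and 8.22 TPM in WT and 7.20 and 10.97 TPM in the mutant. Both were called higher in TPM (limma adjusted p = 0.0274 and 0.0221), as were 63.0% of all genes tested. TMM scaling left both without a call (adjusted p = 0.583 and 0.846), while AT3G27680 and ARI3 were at or near 0. Around LHCB3, CNGC4, a cyclic nucleotide-gated channel gene, rose to 21.5 ± 1.14 TPM (SD, n = 4), against 11.4 ± 1.07 TPM (SD, n = 3) in WT. MRE11 was at 3.42 and 3.98 TPM, AT5G54280 at 8.10 and 11.95 TPM and CcdA at 88.2 and 107 TPM, with no call after TMM scaling (limma adjusted p = 0.434, 0.126 and 0.449). In TPM AT5G54280 and CcdA were called higher (adjusted p = 9.603e-04 and 0.00333) and MRE11 was not (0.13).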

How the data were processed

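RNA was sequenced from 3 WT and 4 glk1 glk2 seedling libraries with DNA nanoballs, per the labels. The authors deposited 1 table of TPM values. TopHat2, Cufflinks and the build TAIR10 are named without versions, per the submitters' processing notes; the sources used here do not give the annotation, strand setting or treatment of shared reads. TPM keeps no depth, so no counting interval is given.

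Digit-group commas were removed. WT replicate 1 was reassigned to identifiers in alphabetical order. Of the identifiers, 27445 matched RefSeq TAIR10.1 locus tags. Genes with TPM of at least 1 in at least 3 libraries (19127) were tested across all genes with limma 3.58.1 in R 4.3.3 on log2(TPM + 1), with a mean-variance trend and Benjamini-Hochberg adjustment at 0.05. TMM factors (30% and 5% trims, unweighted) were computed on the TPM table. Fold changes on this scale understate low genes. Ratios used exact permutation over 35 divisions of the libraries. The fits were tested on simulated data. The genes, the related lists and the rule that a fall needs both scalings were chosen with earlier results of these data known. The rule for names was: all 4 genes, up to 3 list members with the smallest p (any other was picked with its values known), 3 nearest profiles and 2 neighbours a side. Alternatives varied the pseudocount, filter, scaling, variance model, row order, replicate block and libraries. Sequences, exact shared stretches and motifs came from RefSeq TAIR10.1.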

Additional observations from a re-analysis of the deposited data

Results flagged for a closer look

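Of 66 sets of 4 mutant values examined for a library far from the rest, 1 stood apart. The log2 ratio of LHCB2.3 to LHCB3 was -2.60, -2.57 and -2.57 in mutant replicates 1 to 3 and -2.79 in replicate 4. The gap from replicate 4 to its nearest neighbour was 0.853 of the range, above Dixon's critical value of 0.829 for 4 samples. Chance flags about 1 in 20 such sets. Replicate 4 also had the lowest LHCB2.3 level (263 TPM) and the highest sum of root markers (3034 TPM, of which PYK10 made 2887 TPM). The root marker PHO1 was highest in mutant replicate 3 instead (56.17 TPM, against 31.16 TPM in replicate 4). The part of root tissue was not tested.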

How the results depend on the processing

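Of 18 alternatives for each gene, the calls of LHCB2.2 and LHCB3 held in all (with quantile normalization at -1.29 and -1.40), LHCB2.1 lost its call with quantile normalization (-0.11, limma adjusted p = 0.444) and LHCB2.3 with WT replicate 1 as deposited (-1.34, adjusted p = 0.51). Over leaving out each library the log2 fold changes ran from -1.27 to -1.18 for LHCB2.1, -2.18 to -2.09 for LHCB2.2, -3.69 to -3.51 for LHCB2.3 and -2.22 to -2.11 for LHCB3. Genes called higher numbered 12046 in TPM, 613 after TMM scaling and 762 with quantile normalization; genes called lower numbered 489, 948 and 922. The 483 genes that fell with both scalings became 356 to 572 without single libraries, and the 613 that rose became 165 to 781, with 197, 165 and 328 without WT replicates 1, 2 and 3 and 311 without mutant replicate 1; of 21 antenna genes 18 fell in each of these fits. With WT replicate 1 as deposited, the log2 differences of LHCB2.1 to LHCB2.3 (0.10), LHCB2.2 to LHCB2.3 (-0.81), LHCB2.3 to LHCB3 (0.84) and LHCB2.3 to the LHCB1 sum (0.59) lost their calls and the last 3 changed sign, as that reading puts another gene's value in the LHCB2.3 row. The LHCB2.2 to LHCB3 difference, not called, ran from -0.001 to 0.0694 over single libraries left out. Same-numbered WT and mutant libraries deviated together weakly (r = 0.05, 0.174 and 0.089 across genes), each most with its own number. For differing numbers r ran from -0.108 to 0.008. The sum of seed markers was also highest in replicate 2 of both genotypes (58.5 TPM in WT, 372 TPM in the mutant). The labels name no pairs, so the main fits did not pair the libraries. Whether the numbers mark a shared batch was not tested. A replicate block without mutant replicate 4 gave -1.22, -2.11, -3.51 and -2.11 for LHCB2.1, LHCB2.2, LHCB2.3 and LHCB3, all called, and -0.001 for LHCB2.2 to LHCB3; the genes that rose became 234. Leaving out a library makes the ratio tests too small to reach 0.05, so those values carry no test. The refits of both scalings together were chosen after seeing the data.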
